A study of Rattus norvegicus with 24 samples.

Results

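The cartilage genes described here are 10 genes of cartilage matrix and of the transcription factors that direct it, measured in bone around poly(lactide-co-glycolide) (PLGA) implants in the rat tibia. They are Acan, Col2a1, Col9a1, Col10a1, Comp, Hapln1 and Matn3 on the matrix side and Sox9, Sox5 and Sox6 on the regulatory side. Each gene was represented by the probe set that carries its symbol alone and has the highest mean over all 24 arrays, a choice that used no difference between groups. This gave 9 of the 10 genes, out of 18166 named genes on the arrays, and each of the 9 had only 1 such probe set. Comp, the cartilage oligomeric matrix protein, was not analysed here because no probe set carried its symbol alone in the platform annotation used.

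All 24 arrays came from male Sprague Dawley rats, 12 in number, and each rat gave 1 array per implant type. The Ctrl implant was PLGA without Li+, made with sodium carbonate, and the Li+ implant was PLGA that released lithium ions, made with lithium carbonate. Both implants sat in the same animal, so the rat number pairs a Ctrl with a Li+ array. The 4 groups of 6 arrays were Ctrl day 7 and Li+ day 7 (rats 4, 5, 7, 10, 11 and 15) and Ctrl day 28 and Li+ day 28 (rats 21, 23, 27, 28, 29 and 30), the day being the time from implantation to retrieval. Every rat underwent drilling of the proximal tibia, there was no group without surgery, and the days hold different animals. The tissue was a core taken around the implant, which can hold cortical bone, marrow and healing tissue together. In such bulk RNA, fewer cells of a type and less RNA per cell cannot be told apart.

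Cartilage is built by chondrocytes. SOX9, together with SOX5 and SOX6, switches on the genes for type II and type IX collagen, aggrecan, link protein and matrilin 3, and the resulting matrix traps water between aggrecan aggregates held in a collagen mesh. Chondrocytes that later enlarge make type X collagen before bone replaces them, which is how a fracture callus ossifies, whereas bone next to an implant forms largely without a cartilage stage.

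The promoters of Acan, Sox6 and Col10a1 are shown, because Acan and Sox6 lay at opposite ends of the members' changes over time and Col10a1 marks enlarging chondrocytes. Each is the stretch of 250 bases before the RefSeq start of the gene in assembly GRCr8, written 5′ to 3′ on the gene's strand, and such a stretch was matched for 6 of the 9 measured genes. The Acan promoter (chr1:142390701-142390950, plus strand) is 73.6% G and C with 24 CG steps, the Sox6 promoter (chr1:179665372-179665621, minus strand) 42.8% with 3, and the Col10a1 promoter (chr20:39737286-39737535, plus strand) 41.6% with 1, against a median of 51.2% G and C over all promoters in the table.
Acan: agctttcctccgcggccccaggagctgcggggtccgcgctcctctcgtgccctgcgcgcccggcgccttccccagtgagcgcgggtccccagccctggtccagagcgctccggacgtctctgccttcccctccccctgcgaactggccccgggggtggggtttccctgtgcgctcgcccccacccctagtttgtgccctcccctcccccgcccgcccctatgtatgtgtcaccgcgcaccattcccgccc
Sox6: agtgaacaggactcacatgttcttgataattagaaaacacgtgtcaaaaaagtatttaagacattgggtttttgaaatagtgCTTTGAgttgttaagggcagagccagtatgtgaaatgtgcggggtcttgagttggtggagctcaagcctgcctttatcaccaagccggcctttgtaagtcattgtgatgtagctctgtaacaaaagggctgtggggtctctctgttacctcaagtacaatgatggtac
Col10a1: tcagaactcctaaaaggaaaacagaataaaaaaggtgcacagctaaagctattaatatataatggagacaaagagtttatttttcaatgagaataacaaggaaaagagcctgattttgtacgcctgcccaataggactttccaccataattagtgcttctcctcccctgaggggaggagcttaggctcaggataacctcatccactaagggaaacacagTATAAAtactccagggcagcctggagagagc
Capitals mark the letters of 5 short motifs searched on both strands, none of which overlaps another here. They were AACAAT for SOX factors, CTTTGA for TCF/LEF, AGATAA for GATA factors, TGANTCA for AP-1 and TATAAA for a TATA box, present in 10.3%, 13.9%, 10.3%, 6.34% and 12.9% of 33469 rat promoters of this length. CTTTGA stands 168 to 163 bases before the Sox6 start and TATAAA 31 to 26 bases before the Col10a1 start, and none of the 5 letter strings is in the Acan stretch. Among the other matched promoters, Col9a1 holds CTTTGA on the opposite strand, 173 to 168 bases before its start, and Hapln1 and Matn3 hold none of the 5. A match describes letters only, and the array data carry no measure of binding.

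The arrays gave log2 signals of 36495 probe sets, and array medians ran from 7.231 to 7.341. Of the 9 cartilage genes, 3 (Acan, Col2a1 and Sox6) had a mean signal above the median probe set mean of 7.307, the filter on low values used below, and the files give no detection call for the others. Bglap (osteocalcin), a product of mature osteoblasts, lay at 11.22 to 12.35 over the 12 rat means. The mean deviation of 8 skeletal muscle markers, out of 12 listed, was 4.62 and 2.67 in Ctrl day 28 of rats 23 and 29 and 4.26 in Li+ day 28 of rat 27, and between -0.83 and 0.42 on the other arrays, so changes over rat means are also given without these rats for the cartilage genes and for the other genes called.

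**Figure D1:**
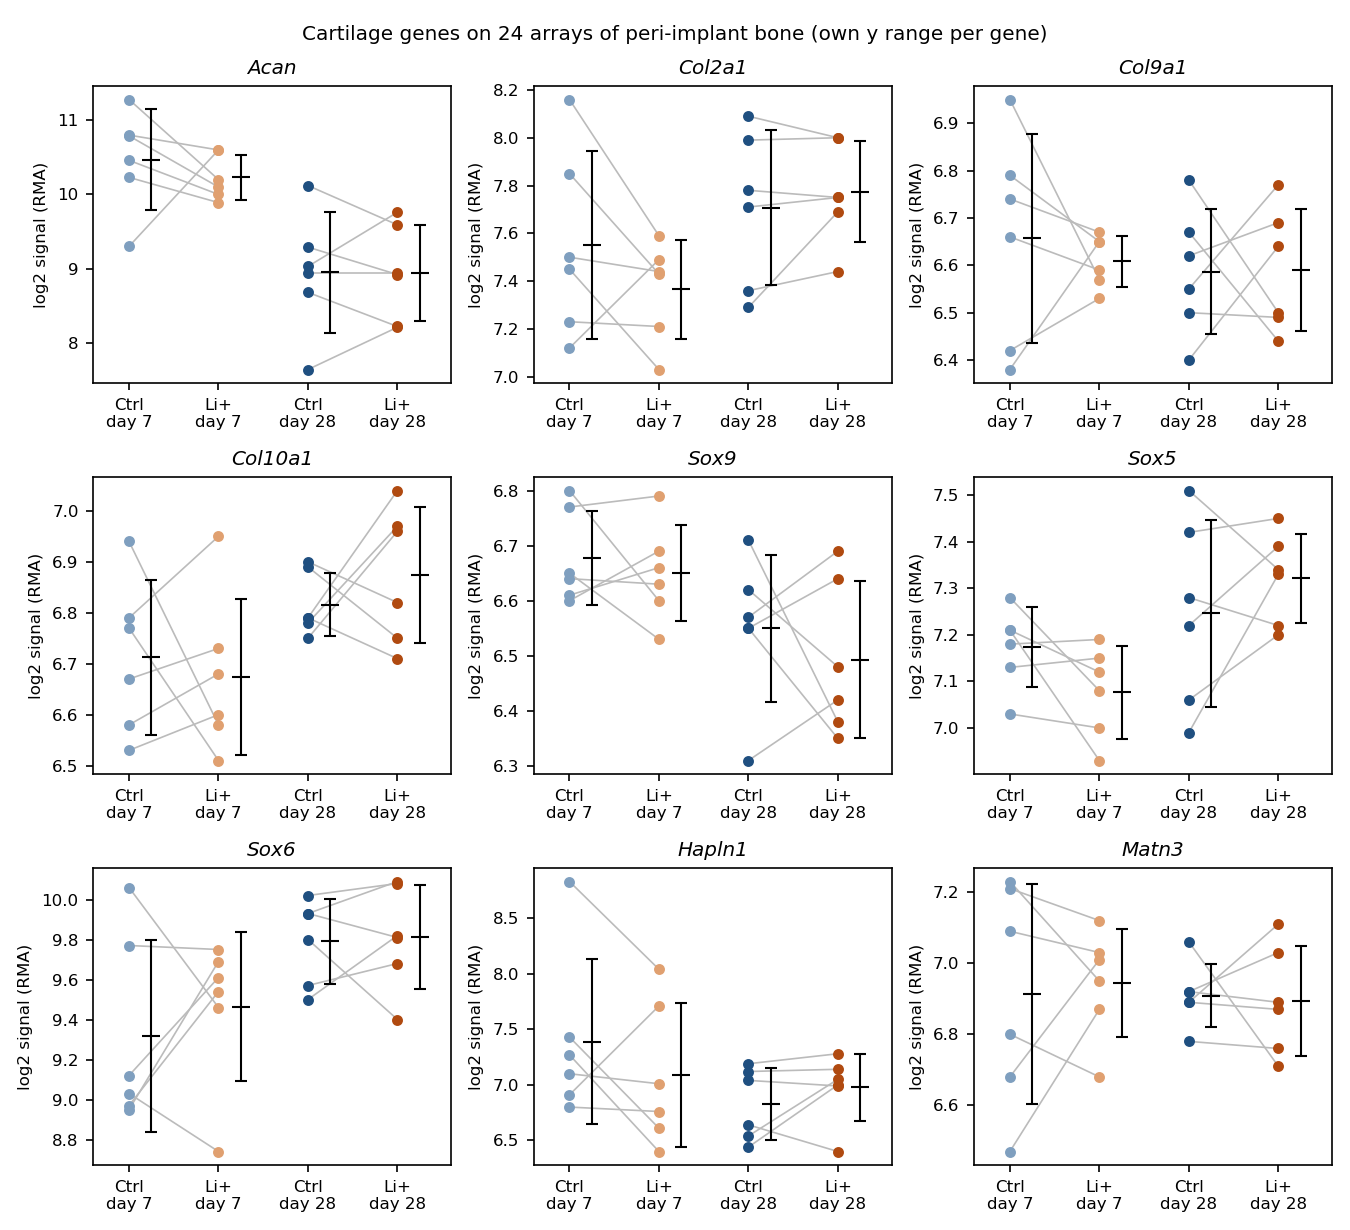
Log2 signal (y axis, own range per gene) of the 9 measured cartilage genes in the 4 groups (x axis), with a point per array, a line joining the 2 arrays of a rat, and bars for the mean and SD of 6 arrays. The Acan rat means do not overlap between days, at 9.95 to 10.74 on day 7 and 7.93 to 9.85 on day 28, while those of the other 8 genes do.

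Acan encodes aggrecan, the large proteoglycan that binds hyaluronan and gives cartilage its resistance to compression. Of the 9 cartilage genes it was the one with an adjusted p under 0.05 over time, and this held over rat means only. From day 7 to day 28 it fell by 1.41 on the log2 scale over rat means, which is 2.65-fold. At day 7 the signal was 9.30 to 11.28 with a median of 10.62 in Ctrl, and 9.89 to 10.60 with a median of 10.15 in Li+. At day 28 it was 7.64 to 10.12 with a median of 8.987 in Ctrl, and 8.21 to 9.76 with a median of 8.931 in Li+. In order of the group means, Ctrl day 7 (10.47 ± 0.677, SD, n = 6) stood above Li+ day 7 (10.23 ± 0.303), Ctrl day 28 (8.95 ± 0.811) and Li+ day 28 (8.941 ± 0.652), and Ctrl and Li+ of one day did not differ beyond their spread. The 2 Li+ groups did not overlap, whereas in Ctrl the lowest day 7 array, rat 15, lay below the highest day 28 array, rat 28. Over rat means, which average the 2 implants of an animal, Acan was 10.74, 10.06, 10.23, 10.44, 10.70 and 9.95 in rats 4, 5, 7, 10, 11 and 15. It was 8.45, 9.39, 7.93, 9.85, 8.94 and 9.11 in rats 21, 23, 27, 28, 29 and 30. Every day 28 animal was therefore below every day 7 animal, a separation that 1.14% of probe sets had in this direction.

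The fall of Acan over rat means had a standard error of 0.273 and a 95% confidence interval of -2 to -0.82 (limma, Benjamini-Hochberg adjusted over 36495 probe sets, adjusted p = 0.0378). An exact two-sided permutation test of the 12 rat means gave p = 0.00216, the smallest value that 6 against 6 animals allow. The separation of the rat means given above fixes this value, so it adds no further support. Acan was 1 of 9 cartilage genes called in this comparison, and 0.965% of all probe sets were called. The share was higher among probe sets with 1 symbol, as all 9 genes are: the fit to these alone called 745 of 18511, Acan among them. Within Ctrl the change was -1.52 (SE 0.379, 95% interval -2.34 to -0.71, limma adjusted p = 0.147), and within Li+ it was -1.29 (SE 0.262, interval -1.86 to -0.72, adjusted p = 0.0654), neither past the threshold of 0.05. The comparison over rat means shares arrays with the other 2, which share rats with each other, so the 3 do not stand for separate evidence. The call depended on the animals: it was kept without rat 10, 23 or 28 and lost without any 1 of the other 9 rats, with adjusted p between 0.00966 and 0.092 and a change between -1.59 and -1.20. With rats 23, 27 and 29 left out for their muscle-marker signal, the change over rat means was -1.22 (adjusted p = 0.324). In that fit, with fewer day 28 rats, 0 of 36495 probe sets were called, so the lost call was not particular to Acan.

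**Figure D2:**
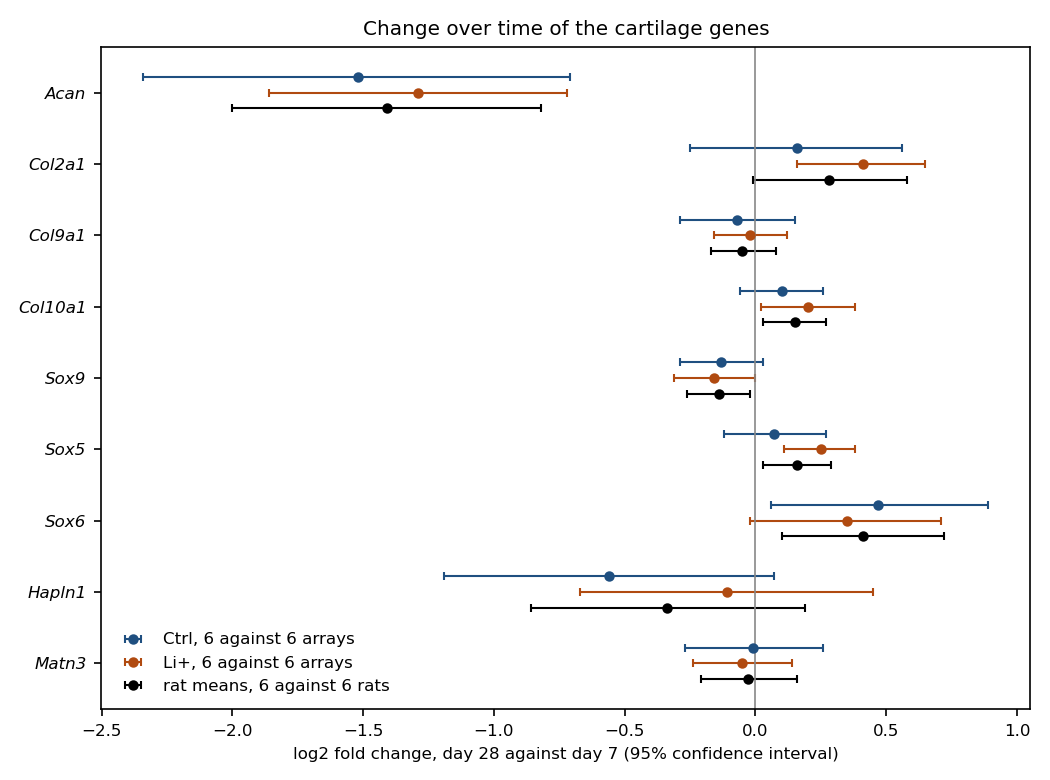
Log2 fold change from day 7 to day 28 (x axis, with 95% confidence interval) of each cartilage gene (y axis) in Ctrl arrays, in Li+ arrays and over rat means. Acan is the gene whose 3 intervals all lie below 0, with centres from -1.52 to -1.29.

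The fibrillar collagen of cartilage is encoded by Col2a1, and its values did not follow those of Acan over time. Col2a1 was 7.12 to 8.16 (median 7.475) in Ctrl day 7 and 7.03 to 7.59 (median 7.436) in Li+ day 7. It was 7.29 to 8.09 (median 7.75) in Ctrl day 28 and 7.44 to 8 (median 7.75) in Li+ day 28. The days overlapped in both implant groups, and the rat means overlapped too. The log2 change over rat means was 0.28 (95% interval -0.01 to 0.58, adjusted p = 0.311), and it was 0.16 in Ctrl (adjusted p = 0.803) and 0.41 in Li+ (SE 0.113, adjusted p = 0.118).

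Hapln1 encodes link protein, which fastens aggrecan to hyaluronan, and it had the widest spread between rats at day 7 of the 9 genes (SD 0.614 over 6 rat means). Its signal was 6.80 to 8.83 (median 7.183) in Ctrl day 7, 6.40 to 8.04 (median 6.889) in Li+ day 7, 6.44 to 7.19 (median 6.84) in Ctrl day 28 and 6.40 to 7.28 (median 7.025) in Li+ day 28. The upper end at day 7 was rat 11, which was the highest animal under both implants, and the days overlapped. The change over rat means was -0.34 (95% interval -0.86 to 0.19, adjusted p = 0.525), and without rat 11 it was -0.10 (adjusted p = 0.78).

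Col9a1, a chain of the type IX collagen that decorates type II fibrils, and Matn3, the matrilin that links collagen fibrils to other matrix molecules, were near their day 7 levels at day 28. The change over rat means was -0.05 for Col9a1 (95% interval -0.17 to 0.08, adjusted p = 0.764) and -0.03 for Matn3 (interval -0.21 to 0.16, adjusted p = 0.909). Over all 24 arrays Col9a1 ran from 6.38 to 6.95 and Matn3 from 6.47 to 7.23, and for both genes the highest and the lowest array belonged to Ctrl day 7. Col10a1, the collagen of enlarging chondrocytes, ran from 6.51 in Li+ day 7 of rat 7 to 7.04 in Li+ day 28 of rat 29. Its change over rat means was 0.15 (95% interval 0.03 to 0.27, unadjusted p = 0.0168, limma adjusted p = 0.176), and the days overlapped.

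Of the 3 transcription factors, Sox9, the master regulator of chondrocyte identity, had a change of -0.14 over rat means (95% interval -0.26 to -0.02, unadjusted p = 0.0215, limma adjusted p = 0.198). Its signal was 6.53 to 6.80 over the 12 day 7 arrays and 6.31 to 6.71 over the 12 day 28 arrays, which overlap. Sox5, which acts beside SOX9 as a partner without an activation domain of its own, had a change of 0.16 over rat means (interval 0.03 to 0.29, unadjusted p = 0.0234, limma adjusted p = 0.206). In Li+ arrays Sox5 was 6.93, 7.15, 7.19, 7.08, 7.12 and 7.00 in rats 4, 5, 7, 10, 11 and 15 and 7.22, 7.33, 7.34, 7.39, 7.45 and 7.20 in rats 21, 23, 27, 28, 29 and 30. The Li+ days therefore did not overlap, which held for 0.844% of probe sets in this direction, by a gap between 7.19 and 7.20. In Ctrl arrays Sox5 overlapped, at 7.03 to 7.28 on day 7 and 6.99 to 7.51 on day 28. The Li+ change of 0.25 (SE 0.062) did not pass adjustment (limma, unadjusted p = 0.00171, adjusted p = 0.0996), and the difference between the Li+ and Ctrl time courses of Sox5 was 0.17 (95% interval -0.03 to 0.38, adjusted p = 1).

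Sox6, the other partner of SOX9, had the highest positive change of the members, 0.41 over rat means (95% interval 0.10 to 0.72, unadjusted p = 0.0131, limma adjusted p = 0.159). Its signal was 8.95 to 10.06 (median 9.077) in Ctrl day 7, 8.74 to 9.75 (median 9.575) in Li+ day 7, 9.50 to 10.02 (median 9.864) in Ctrl day 28 and 9.40 to 10.09 (median 9.815) in Li+ day 28. The rat means were 8.89 to 9.76 at day 7 and 9.60 to 10.05 at day 28, so the days overlapped, with rats 10 and 15 both at 9.76 on day 7. The change in Ctrl was 0.47 (adjusted p = 0.369) and in Li+ 0.35 (adjusted p = 0.333).

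By adjusted p, 0 of 9 cartilage genes were called in Ctrl over time, where 0.0959% of probe sets were, and 0 of 9 in Li+ over time, where 0.279% were. At an unadjusted p under 0.05, 2 of 9 passed in Ctrl (Acan and Sox6), against 11.4% of probe sets. In Li+ 5 of 9 passed (Acan, Col2a1, Col10a1, Sox9 and Sox5), against 16.1%, and over rat means 5 of 9 passed (Acan, Col10a1, Sox9, Sox5 and Sox6), against 17.1%. All 9 genes are single-symbol probe sets, and fits to such probe sets alone gave the same unadjusted counts. There the unadjusted shares were higher, at 15% in Ctrl, 22.3% in Li+ and 23% over rat means. By adjusted p the count differed in Li+ over time, where the single-symbol fit called Acan and 265 of 18511 probe sets. Those 5 over rat means did not share a direction, since Acan and Sox9 were lower at day 28 and Col10a1, Sox5 and Sox6 higher. With the added criterion of a 1.5-fold difference only Acan passed, in each of the 3 comparisons, where 1.15%, 1.23% and 1.15% of probe sets did so in Ctrl, in Li+ and over rat means. The median change of the 9 genes over rat means was -0.028, beside 0.0197 for all probe sets. Without rats 23, 27 and 29 the changes over rat means of the genes other than Acan were 0.27 for Col2a1, -0.32 for Hapln1, -0.01 for Col9a1, 0.02 for Matn3, 0.15 for Col10a1, -0.21 for Sox9, 0.10 for Sox5 and 0.43 for Sox6, with adjusted p from 0.37 (Sox9) to 0.971 (Col9a1). Sox9 was then further from 0, Sox5 nearer, and Matn3 changed sign.

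Lithium and control implants were compared within rats, to ask whether Li+ altered the cartilage genes. At day 7, 0 of 9 genes passed at an adjusted p under 0.05 and 0 of 9 at an unadjusted p under 0.05, where 0.00274% and 3.63% of probe sets did. Without rat 15, 3 of 9 (Acan, Col2a1 and Hapln1) passed at an unadjusted p under 0.05 at day 7, against 5.1% of probe sets, and 0 of 9 by adjusted p. Rat 15 was the 1 rat with Li+ above Ctrl for these 3 genes, so leaving it out was bound to move their differences away from 0. Their values also varied together across arrays, so they are not 3 separate results. Without rat 4, 5, 7, 10 or 11 the unadjusted count was 0 of 9, against 3.34% to 3.82% of probe sets. At day 28, 0 of 9 passed by either p, where 0% and 4.32% did. For the difference shared by both days 0 of 9 passed by either p, where 0% and 4.49% of probe sets did, and for the difference between days 0 of 9 passed by either p, where 0% and 3.62% did. The adjusted p was 0.985 to 0.991 at day 7 and 0.999 at day 28 for all 9 genes.

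Acan was lower at the Li+ than at the Ctrl implant in 5 of 6 rats at day 7, by -1.08, -0.33, -0.46, -0.69 and -0.20 in rats 4, 5, 7, 10 and 11, and higher by 1.30 in rat 15. Its mean difference was -0.24 (SE 0.261, 95% interval -0.84 to 0.35), and rat 15 was the animal with the lowest Ctrl array of that day. Without rat 15 the day 7 difference was -0.55 (unadjusted p = 0.00311, limma adjusted p = 0.865). At day 28 Acan was -0.45, 0.73, 0.58, -0.53, 0 and -0.38 in rats 21, 23, 27, 28, 29 and 30, so the animals did not share a sign, and the mean was -0.01 (95% interval -0.44 to 0.42). Without rats 23, 27 and 29 the day 28 difference was -0.45 (unadjusted p = 0.00186, limma adjusted p = 0.862), from 3 rats. The intervals leave room for a difference of either sign at both days.

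Hapln1 and Col2a1 had the same count as Acan at day 7, with Li+ lower in 5 of 6 rats and rat 15 the exception. The mean Hapln1 difference was -0.30 (95% interval -0.79 to 0.18, adjusted p = 0.985), with rats 4, 7 and 11 at -0.82, -0.87 and -0.79 and rat 15 at 0.79. The mean Col2a1 difference was -0.19 (interval -0.47 to 0.09, adjusted p = 0.985), with rats 4, 7 and 11 at -0.42, -0.43 and -0.57 and rat 15 at 0.37. Without rat 15 the differences were -0.52 for Hapln1 (unadjusted p = 0.00984) and -0.30 for Col2a1 (unadjusted p = 0.0196), each with a limma adjusted p of 0.865. At day 28 the mean difference was 0.15 for Hapln1 (interval -0.11 to 0.41) and 0.07 for Col2a1 (interval -0.09 to 0.23). The 6 other genes had mean differences between -0.10 and 0.15 at day 7 and between -0.06 and 0.08 at day 28. The difference between the 2 days was 0.45 for Hapln1 (95% interval -0.12 to 1.02), 0.25 for Col2a1 (interval -0.07 to 0.57) and 0.24 for Acan (interval -0.53 to 1), each with an adjusted p of 1. Without rat 15 it was 0.67, 0.36 and 0.54 (limma, unadjusted p = 0.00569, 0.0116 and 0.0501, adjusted p = 0.97 for each), and over the 12 fits without 1 rat the Acan value ran from 0.07 to 0.54.

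**Figure D3:**
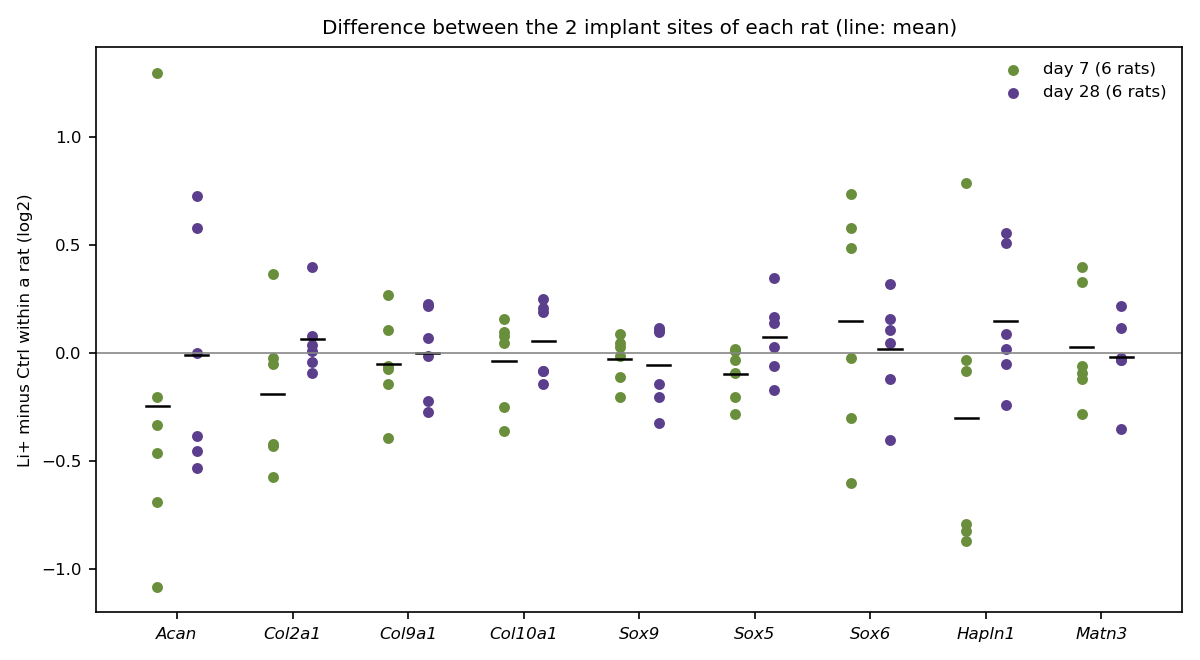
Li+ minus Ctrl signal within each rat (y axis, log2) for each cartilage gene (x axis), a point per rat and a line at the mean of 6 rats, day 7 beside day 28. The means lie between -0.30 and 0.15, and for Acan, Col2a1 and Hapln1 at day 7 the 1 rat above 0 is rat 15.

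The cartilage genes were next compared in how they varied from array to array inside a group, using each array's deviation from the mean of its own group. These correlations run over 24 arrays of 12 rats that share animals and normalization, and are given as a description. Of 36 pairs of genes, 5 had a Pearson r above 0.5, 3 had one below -0.5 and the median was 0.19. The 5 positive pairs were all among matrix genes: Col2a1 with Hapln1 (0.766), Acan with Col2a1 (0.739), Col2a1 with Matn3 (0.58), Acan with Matn3 (0.552) and Acan with Hapln1 (0.501). The 3 negative pairs all held Sox6, with Hapln1 (-0.616), Col2a1 (-0.605) and Acan (-0.55). Sox6 had an r of -0.623 with the mean of the other 8 genes, Col2a1 had 0.856 and Sox5 had 0.00244. Sox9 had 0.418 with Col2a1, 0.373 with Acan and -0.169 with Sox6.

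Sox6 is also a transcription factor of red cell precursors, known from the mouse, and its deviations were set beside those of 6 erythroid markers, of 10 listed, namely Klf1, Epor, Ahsp, Slc4a1, Rhag and Hemgn. The correlation was 0.946 (Spearman rho 0.952), at 0.952 within day 7, 0.927 within day 28 and 0.939 without the 2 arrays farthest out, and single markers gave 0.89 (Klf1) to 0.941 (Hemgn). The highest Sox6 arrays of Ctrl day 7, rats 15 and 10, were also the highest in erythroid markers there, at 0.29 and 0.44, and the lowest Sox6 array of all, Li+ day 7 of rat 11, had the lowest erythroid mean of all, -0.72. Over time all 6 erythroid markers had a positive log2 change over rat means (0.16 to 0.38, median 0.289), and 0 of 6 were called, where 0.965% of probe sets were. Their part in the Sox6 values was not tested.

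Acan and Col2a1 varied with several of the gene lists. Of the 10 lists, both had their highest r with the 18 measured genes of chondrocyte signals and proteoglycan sulfation (0.775 for Acan and 0.813 for Col2a1). With 5 tendon and ligament markers Acan had 0.671, at 0.482 within day 7, 0.749 within day 28 and 0.485 without the 2 arrays farthest out. Over 9 osteoblast and osteocyte markers, of 10 listed, the r was 0.727 for Acan (Spearman rho 0.823, 0.483 within day 7, 0.854 within day 28, 0.627 without the 2 arrays farthest out) and 0.754 for Col2a1. Single markers gave Acan values from 0.522 for Phex, a protease of osteocytes, to 0.77 for Col1a2, a chain of type I collagen. These 9 markers also had a negative change over rat means (9 of 9, -1.02 to -0.08, median -0.355), and 0 of 9 were called, where 0.965% of probe sets were. Their part in the Acan result was not tested. Over the 3 measured osteoclast markers the r of Col2a1 was 0.756, and of Acan 0.557.

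Of 21 further cartilage matrix genes, 19 were measured, and over rat means 2 fell and 0 rose, where 0.965% of probe sets were called. The fit to single-symbol probe sets alone called 745 of 18511. Prg4, which encodes the joint lubricant lubricin, fell by 0.68 on the log2 scale (95% interval -1 to -0.37, limma adjusted p = 0.0477), from a median rat mean of 8.648 at day 7 to 7.902 at day 28. Col27a1, a fibrillar collagen of growing cartilage, fell by 0.36 (interval -0.53 to -0.19, adjusted p = 0.0487), from 8.632 to 8.33. Every day 28 rat (8.05 to 8.45) was below every day 7 rat (8.53 to 8.89), a separation that 1.14% of probe sets had in this direction. Col27a1 was named for its small p in this same comparison, so the separation adds no further support. Col11a1 and Col11a2, chains of the type XI collagen in the core of type II fibrils, had changes of -0.79 (adjusted p = 0.102) and -0.33 (adjusted p = 0.139). The median of the 19 was 0.00255, beside 0.0197 for all probe sets, and 9 of 19 were below 0, as were 42.2% of probe sets. Left out one at a time, rats 10 and 28 were the 2 of 12 without which the calls of Prg4 and Col27a1 were kept. Without rats 23, 27 and 29 together the changes were -0.73 (adjusted p = 0.346) and -0.34 (adjusted p = 0.355), in a fit that called 0 of 36495 probe sets. Under the methods' t-test both calls were lost, at an adjusted p of 0.0959 for Prg4 and 0.0853 for Col27a1.

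Genes that signal to chondrocytes or that build and sulfate the chondroitin chains of aggrecan were measured for 18 of 21. Over rat means 0 were called, where 0.965% of probe sets were, with a median of -0.0767. Chsy1, a chondroitin synthase, had a change of -0.35 (interval -0.54 to -0.17, adjusted p = 0.0638), and Chsy3, another, -0.44 (adjusted p = 0.0953). Papss2, which makes the sulfate donor, had -0.66 (adjusted p = 0.116), and Fgfr3, a receptor that restrains chondrocyte growth, -0.36 (adjusted p = 0.101). At an unadjusted p under 0.05, 7 of the 18 were lower and 2 higher at day 28, where 7.87% and 9.24% of probe sets were.

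A list of cartilage cleavage, 8 proteases that act on aggrecan or cartilage collagen and the 2 protease inhibitors Timp1 and Timp3, was measured for 10 of 10. Over rat means 1 protease fell and 0 genes rose, where 0.965% of probe sets were called, and 745 of 18511 in the fit to single-symbol probe sets alone. Mmp3 (stromelysin 1) fell by 0.75 (95% interval -1.07 to -0.43, limma adjusted p = 0.0407), from a median rat mean of 7.17 to 6.496. Its mean signal of 6.873 lay below the median probe set mean of 7.307, and with no detection call its signal over background was not tested. The days lay apart at 6.95 to 7.89 and 6.24 to 6.79, a separation that 1.14% of probe sets had in this direction. Mmp3 too was named for its small p in this comparison, so the separation adds no further support. Its call was kept without rat 5, 10, 23 or 28 and lost without any 1 of the other 8. Without rats 23, 27 and 29 the change was -0.79 (adjusted p = 0.339), in a fit that called 0 of 36495 probe sets. The methods' t-test gave an adjusted p of 0.085. Adamts5 and Adamts4, the main aggrecanases, had changes of -0.34 (adjusted p = 0.0744) and -0.42 (adjusted p = 0.116), and Mmp14, a membrane collagenase, -0.76 (adjusted p = 0.093). The median of the 8 proteases was -0.373 and that of the 2 inhibitors -0.122, beside 0.0197 for all probe sets. Within Li+ arrays Mmp3 and Prg4 were called as well, at -0.73 and -0.78 (limma adjusted p = 0.0463 for both), where 0.279% of probe sets were called. In Ctrl arrays their changes were -0.77 and -0.59, not called (limma adjusted p = 0.374 and 0.328). The Li+ calls were lost without rats 23, 27 and 29 (adjusted p = 0.421 and 0.448 for Mmp3 and Prg4), under the methods' t-test (0.0896 and 0.0975) and in the fit to all 24 arrays with the rat as a random block (0.212 and 0.0719). The Li+ fit without rats 23, 27 and 29 called 1 of 36495 probe sets. Of the 12 fits without 1 rat, Mmp3 kept its call without rat 7, 28 or 30 and Prg4 without rat 28 or 30.

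Hypertrophy genes that osteoblasts also use were measured for 10 of 10, with 0 called, where 0.965% of probe sets were, and a median of -0.255. Panx3, a channel of hypertrophic chondrocytes and osteoblasts, had a change of -0.97 (adjusted p = 0.145), Sp7 (osterix), a transcription factor needed for osteoblasts, -0.58 (adjusted p = 0.142), Alpl (alkaline phosphatase) -0.36 (adjusted p = 0.236) and Spp1 (osteopontin) -0.23 (adjusted p = 0.25). Among tendon and ligament markers 0 of 5 were called (median -0.134), among adipocyte markers 0 of 6 (median -0.164), among osteoclast markers 0 of 3 (median -0.469) and among skeletal muscle markers 0 of 8 (median 1.02). At an unadjusted p under 0.05, 4 of 10 hypertrophy genes, 2 of 3 osteoclast markers and 1 of 5 tendon and ligament markers were lower. In turn 3 of 8 muscle markers were higher, and 0 of 6 adipocyte markers passed. Of all probe sets, 7.87% were lower and 9.24% higher.

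**Figure D4:**
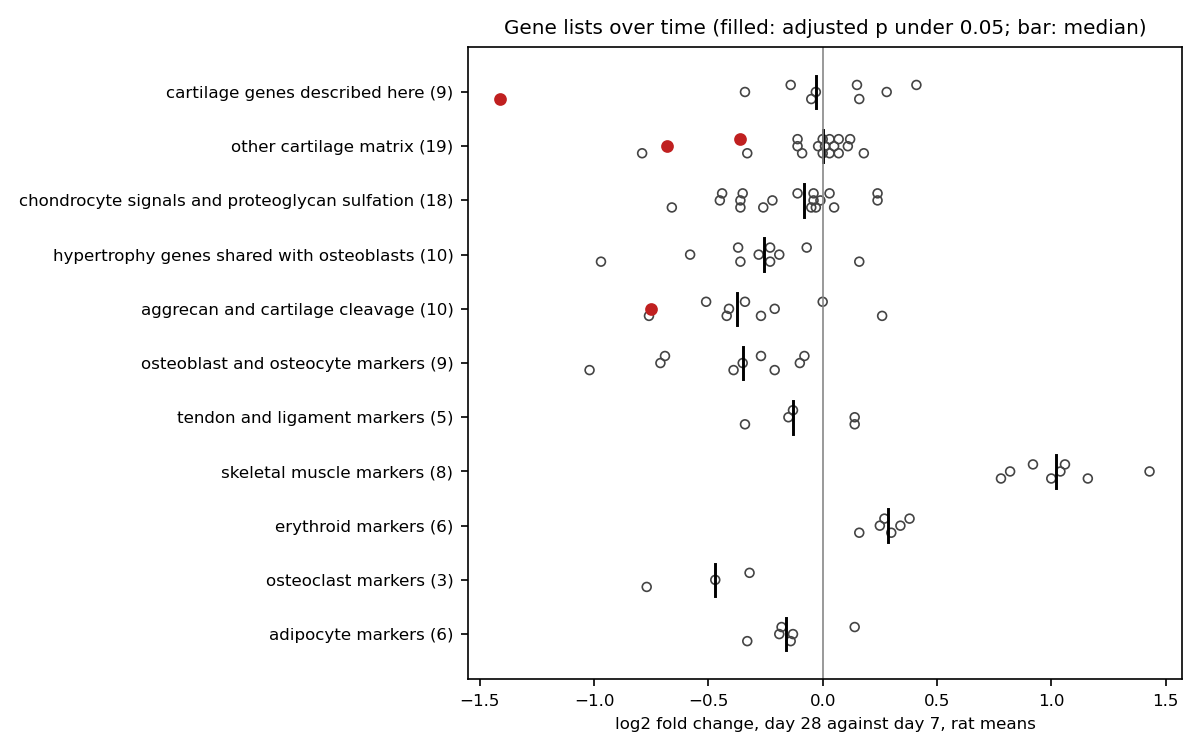
Log2 fold change from day 7 to day 28 over rat means (x axis) of each measured gene of the 11 gene lists (y axis, number measured in brackets), with a bar at the list median and filled points for an adjusted p under 0.05. The filled points are Acan, Prg4, Col27a1 and Mmp3, all below 0.

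The genes whose deviations were most like the mean of the 9 cartilage genes over the 24 arrays were Anxa8 (r = 0.836), Trim62 (0.812), Sil1 (0.806), Igsf9 (0.8), Agmat (0.789), Tcf7l1 (0.785), Relb (0.78), Mir351 (0.779), Trpv4 (0.776) and Plagl1 (0.775). Anxa8, an annexin, had 0.926 within day 7 and 0.699 within day 28, and Sil1, a chaperone factor of the endoplasmic reticulum, 0.741 and 0.911. These values come from the arrays by which the genes were picked, so they are high by construction. The mean was not scaled by gene, so genes of wide spread such as Acan weigh most in it. Trpv4, a calcium channel of chondrocytes, is the one gene among these 10 that also stands on the list of chondrocyte signals.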

How the data were processed

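Peri-implant bone RNA of 24 samples was hybridised by the authors to Affymetrix Rat Gene 2.0 ST arrays, and per the labels and methods the signals were normalized and summarized with RMA in Affymetrix Expression Console 1.1.2. The deposited values are log2 signals, used as given, for 36685 probe sets, of which 190 controls were left out. RMA sets all arrays to one distribution, so a change is relative to the whole array. Symbols came from the platform annotation: 18511 probe sets had 1 symbol, 575 several and 17409 none. No scan date or batch is given in the sources used here.

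Groups and rat numbers were taken from the sample labels. limma 3.58.1 in R 4.3.3 was fitted to 36495 probe sets with Benjamini-Hochberg adjustment and a threshold of 0.05 in 7 comparisons. Li+ and Ctrl were compared with the rat as a block, since both implants were in the same animal, and days without one, as in the methods. As a check of the pairing, deviations of same-rat arrays from their group means correlated at a median of 0.279 (11 of 12 over 0.1), and those of different rats at -0.0347. Rat means average both arrays of an animal. P-values measure the spread between 6 animals a group, and the number of arrays limits precision. The fits were tested on simulated data. Promoter sequences came from RefSeq (GRCr8), drawn with python 3.11.15, and figures with matplotlib 3.10.9.

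The cartilage genes and the other lists were chosen with earlier results of these data known. Named genes were all members, up to 4 genes per list with the smallest p over rat means, and the 10 genes most correlated with the members' mean. Alternatives were array median centring, a filter on low signals, single-symbol probe sets, limma with trend and robust settings, the methods' t-test, no block or a random block, and leaving out rats.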

Additional observations from a re-analysis of the deposited data

Results flagged for a closer look

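Among 54 sets of 6 values of the cartilage genes (each group of arrays, and each day's differences within rats), 5 held a value far from the other 5 by Dixon's criterion, which chance meets in about 1 set in 20. The difference of Acan between Li+ and Ctrl at day 7 was 1.30 in rat 15 and -1.08 to -0.20 in the other rats. The difference of Col2a1 at day 28 was 0.40 in rat 27, whose Li+ array was high in muscle markers, and -0.09 to 0.08 in the other rats. The Sox6 signal in Li+ day 7 was 8.74 in rat 11 and 9.46 to 9.75 in the others, and the mean deviation of erythroid markers was also at its lowest there, -0.72. The Hapln1 signal was 8.83 in Ctrl day 7 of rat 11 against 6.80 to 7.43 in the others, and 6.40 in Li+ day 28 of rat 21 against 6.99 to 7.28.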

How the results depend on the processing

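The number of cartilage genes called was 0 in the 4 comparisons that involve Li+ against Ctrl, under every alternative run, including the fits with no replicate block, where it was 0 in each. Over rat means it was 1 (Acan), with 1 under median centring, the filter on low signals, trend and robust settings, single-symbol probe sets and the random block (consensus correlation 0.25), 0 under the methods' t-test, 0 without rats 23, 27 and 29, 0 without rats 10 and 23, and 0 to 1 when 1 rat was left out. The Acan change itself stayed between -1.59 and -1.20, and the cause of the lost calls was not tested. In Ctrl over time the count was 0, and 1 (Acan) with all 24 arrays and a random block. In Li+ over time it was 0, and 1 (Acan) with the filter on low signals, with trend and robust settings and with single-symbol probe sets, and 0 to 1 when 1 rat was left out, the 1 being without rat 28. Of 1119 values of single cartilage genes under alternatives, 61 had another sign than reported, none of them called. Over all probe sets the calls ranged under alternatives from 1 to 263 in Ctrl over time (35 reported), from 1 to 1019 in Li+ over time (102 reported) and from 0 to 1773 over rat means (352 reported). The 0 over rat means was the fit without rats 23, 27 and 29. A second probe set per gene was planned as an alternative and was not run, since no cartilage gene had one. The sets without rats 23, 27 and 29, without rats 10 and 23, and without the 3 muscle-high arrays were chosen after seeing the data. With 6 of the 9 genes below the median probe set mean and no detection call in the files, signal over background was not tested for them.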
